A study of Homo sapiens with 2 samples.

Results

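Aminoacyl-tRNA synthetases are the enzymes that charge each transfer RNA with its amino acid. The genes described here are 20 cytosolic synthetases, 16 mitochondrial synthetases (gene names ending in 2) and the scaffold proteins AIMP1 and AIMP2. They were taken by gene name, and all 38 were found among the 58735 genes of the deposited expression table. Human cells keep separate sets of these enzymes for the cytosol and for the mitochondrion, and both sets are encoded in the nucleus, most of them by separate genes. GARS and KARS each serve both compartments, and mitochondrial glutaminyl-tRNA is made by amidation, so these amino acids have no separate mitochondrial enzyme. Several cytosolic enzymes sit together in a multisynthetase complex held by AIMP1 and AIMP2, and many cytosolic synthetase genes are textbook targets of ATF4, the transcription factor of the amino acid response.

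The values come from RNA sequencing of U87MG, an established human glioblastoma cell line, grown for a week as glioma spheres under stem cell culture conditions. One library came from cells carrying the control lentivirus pGIPZ-CTRL and the other from cells carrying a lentivirus with an shRNA against TRIP13, and both were puromycin-selected. The labels name 1 library per group and do not say how many clones it holds, so the differences below carry no test, no p-value and no check between replicates, and each describes these libraries rather than the conditions. TRIP13, the ATPase that the shRNA was made against, stood at 11.9 FPKM in the control library and at 23.1 FPKM where the TRIP13 shRNA was labelled (ratio 1.95, counting interval 1.79 to 2.12). This goes against the label. Whether labels or columns were exchanged, or the knockdown does not show in the transcript, cannot be told apart with these files. An exchange would turn every direction below, so that AIMP2 would stand at 0.408 and QARS at 1.19 times the control level. The name "library labelled TRIP13 shRNA" is used throughout.

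FPKM divides a gene's fragments by exon length and by a library total. The values were whole multiples of the worth of 1 read, which gave back 18871063 reads for the control library and 19903836 for the one labelled TRIP13 shRNA. Both columns had been divided by one common total, so an FPKM ratio still holds the depth ratio of 1.05. Ratios below are the library labelled TRIP13 shRNA over the control library, with a 95% exact (Clopper-Pearson) interval from the split of the reads, which covers counting error only. The log2 ratio is taken after adding 1 to both FPKM values. It was read for the 10671 protein-coding genes whose mean over the libraries reached 1 FPKM, called tested genes here, and their median log2 ratio was 0.12. Of the glioma and astroglial markers, VIM (427 against 442 FPKM), EGFR (13.8 against 16.8), NES (2.21 against 5.23) and CHI3L1 (57.8 against 670) passed this filter, while GFAP, S100B, SOX2 and PROM1 did not, at no more than 28 and 92 reads (GFAP). Of the microglia and leukocyte markers 1 of 8 passed (CSF1R), and they summed to 3.80 and 4.60 FPKM, with AIF1, CX3CR1 and P2RY12 at 0 reads in both libraries. Endothelial markers (1 of 5 passed, KDR at 2.85 against 4.52 FPKM) summed to 2.90 and 5.26 FPKM. Neuronal markers (3 of 6 passed, from SYT1 at 0.858 against 1.93 FPKM to SNAP25 at 5.93 against 6.26) summed to 9.30 and 10.8, and the part of other cell types in the differences below was not tested. In bulk RNA, fewer cells of a type and less RNA per cell cannot be told apart.

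Nearly all synthetase genes were higher in the library labelled TRIP13 shRNA, by amounts that differed widely between members. Of the 38 genes, 37 passed the filter and SARS2 did not. Of these 37, 35 had a log2 ratio above 0, against 60.2% of all tested genes, although VARS, NARS2 and YARS2 among them turned below 0 under other scalings. QARS and VARS2 were below 0 under each scaling tried, where 39.6% of all tested genes were below 0 as deposited. The log2 ratio was at the 1.5-fold mark or above for 10 of 37, where 12.5% of all tested genes were, and at the 2-fold mark or above for 4 (FARSA, FARSB, MARS2 and AIMP2), where 2.17% were. No member was 1.5-fold lower, against 10.2% of all tested genes, or 2-fold lower, against 4.19%. The median over the 37 was 0.33 beside 0.12 over all tested genes. With each library divided by its own total, 33 members lay above 0 (55.0% of all genes did), 6 reached the 1.5-fold mark (9.62% did), and AIMP2 and MARS2 reached the 2-fold mark (1.67% did). With the median ratio of all genes set to 1, 32 lay above 0 against 50% of all genes, the same 6 genes (FARSA, FARSB, HARS, AARS2, MARS2 and AIMP2) reached the 1.5-fold mark against 7.62% of all genes, and AIMP2 alone reached 2-fold, against 1.30%. That setting moves the median of all tested genes by -0.12. Among all genes past the 1.5-fold mark in either direction, 55.2% were higher as deposited, 36.7% with the median ratio set to 1, 36.6% under TPM and 45.2% with own totals. Past the 2-fold mark these shares were 34.2%, 20.2%, 22.5% and 25.8%.

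**Figure D1:**
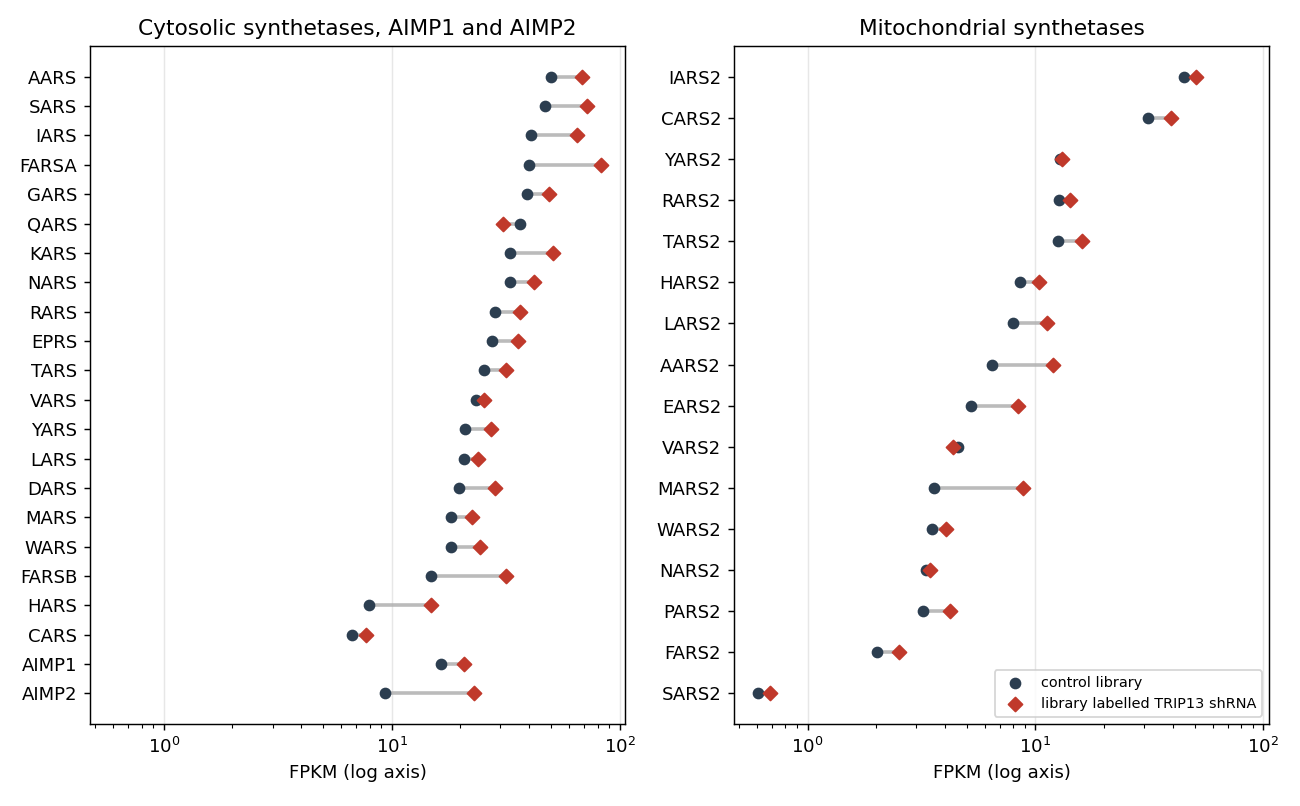
FPKM (log axis) of the 38 genes in the library labelled TRIP13 shRNA (diamonds) and the control library (circles), 1 library each, ordered by the control level within the cytosolic enzymes, the scaffolds and the mitochondrial enzymes. The diamond lies to the right of the circle for every gene except QARS and VARS2 (VARS, NARS2 and YARS2 turn under other scalings), and the widest gaps belong to AIMP2, MARS2, FARSB and FARSA.

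The cytosolic enzymes were the more abundant set, and some of them held different places in the order of levels in the libraries. In the control library the highest levels were those of AARS, the alanyl enzyme, at 50.2 FPKM and SARS, the seryl enzyme, at 46.9 FPKM. In the library labelled TRIP13 shRNA, FARSA led at 82.9 FPKM, ahead of SARS at 71.7 and AARS at 68.4. The lowest cytosolic level in both was that of CARS, the cysteinyl enzyme, at 7.69 against 6.69 FPKM. Spearman's rho between the levels of the 38 genes in the libraries was 0.97, and over the 20 cytosolic genes alone it was 0.90, both descriptions across genes that share both libraries. FPKM divides by merged exons, 10037 bases for CARS and 7853 for HARS against 2435 for FARSA, so the order of levels also carries that length. The 20 cytosolic genes took 0.286% of all reads in the control library and 0.370% in the one labelled TRIP13 shRNA, 1.29 times the share (1.28 to 1.31).

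Both subunits of the cytosolic phenylalanyl enzyme were about 2-fold higher. FARSA, its alpha subunit (ENSG00000179115, hg38 chromosome 19, 12922479 to 12934037, minus strand), had 82.9 against 39.9 FPKM, a ratio of 2.08 (1.97 to 2.20) and a log2 ratio of 1.04. FARSB, the beta subunit (ENSG00000116120, chromosome 2, 222570536 to 222656337, minus strand), had 31.8 against 14.9 FPKM, a ratio of 2.13 (1.98 to 2.30). The subunits work as a tetramer with equal parts of each, and their ratio of levels was nearly the same in both libraries, 2.61 and 2.67 FPKM of FARSA per FPKM of FARSB (quotient 0.975, 0.888 to 1.07). With each library divided by its own total their ratios were 1.97 and 2.02, and both log2 ratios were then under the 2-fold mark. HARS, the histidyl enzyme, was next at 14.9 against 7.96 FPKM, a ratio of 1.87 (1.74 to 2.01).

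IARS, KARS and SARS, the isoleucyl, lysyl and seryl enzymes, completed the cytosolic genes at the 1.5-fold mark. IARS had 65.3 against 41.0 FPKM, a ratio of 1.59 from 9363 and 5878 reads, the most of any member. KARS had 51.1 against 33.0 FPKM (1.55) and SARS 71.7 against 46.9 (1.53). With own totals their ratios were 1.51, 1.47 and 1.45, and all 3 log2 ratios, with 1 added to FPKM, were under the mark. DARS, the aspartyl enzyme, followed at 28.4 against 19.7 FPKM (1.44, 1.35 to 1.53).

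The other cytosolic enzymes differed less. AARS had a ratio of 1.36 and WARS, the tryptophanyl enzyme that interferon gamma induces, 1.35, at 24.5 against 18.1 FPKM. YARS, EPRS, RARS, NARS, TARS, GARS and MARS, which serve tyrosine, glutamate with proline, arginine, asparagine, threonine, glycine and methionine, had ratios from 1.23 (MARS) to 1.30 (YARS). MARS shares 13.3% of its exon length with other genes, among them DDIT3 on the opposite strand (40.8 against 24.4 FPKM). WARS shares 10.6%, in part with WDR25 on the opposite strand (3.23 against 1.30 FPKM). LARS and CARS stood at 1.15, and VARS, the valyl enzyme, at 1.08 (1.03 to 1.14), with 25.3 against 23.4 FPKM. The log2 ratio of VARS, 0.11, was -0.03 with the median ratio set to 1 and also turned below 0 under TPM, so no direction is read for it.

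QARS, the glutaminyl enzyme, stood apart as the one cytosolic gene that was lower. QARS (ENSG00000172053, chromosome 3, 49095932 to 49105135, minus strand) had 36.6 FPKM from 3342 reads in the control library and 30.9 FPKM from 2817 reads in the one labelled TRIP13 shRNA. Its ratio was 0.843 (0.801 to 0.887) and its log2 ratio -0.24, which lay between -0.37 and -0.21 over the alternatives, below 0 in each. It ranked 7 among the 38 levels in the control library and 14 in the other.

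**Figure D2:**
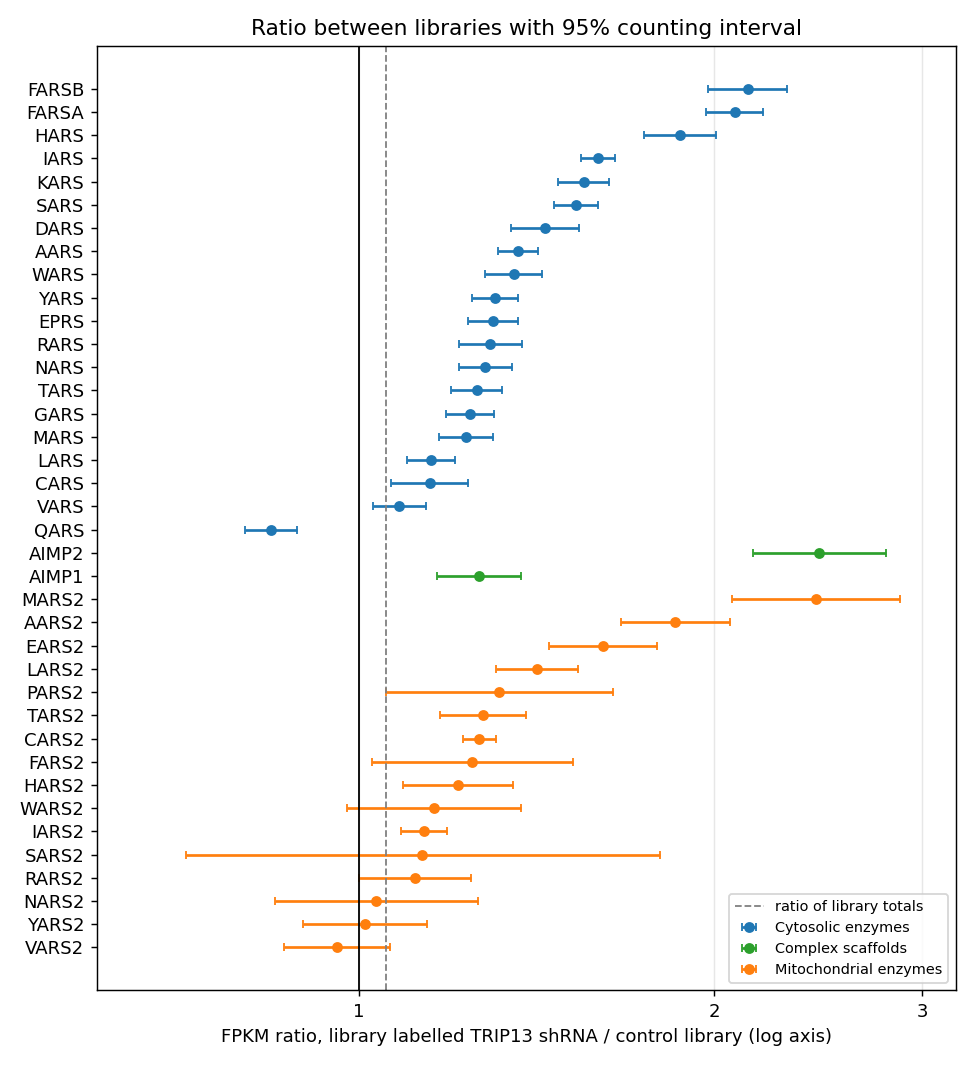
FPKM ratio of each gene, library labelled TRIP13 shRNA over control (log axis), with the 95% counting interval as a bar, in blue for cytosolic enzymes, green for scaffolds and orange for mitochondrial enzymes. The solid line marks 1 and the dashed line the depth ratio of 1.05. FARSA, FARSB, AIMP2 and MARS2 lie above 2, and the interval of QARS lies wholly below 1.

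The cytosolic genes had at least 973 reads in each library. The interval lay above 1 for 19 of 20 cytosolic genes and above the depth ratio for 18, while 49.0% of all tested genes had an interval above 1. The share of all tested genes above the depth ratio was not computed. QARS alone had an interval below 1, where 29.5% of all tested genes did. The 12 cytosolic enzymes outside the multisynthetase complex had a median log2 ratio of 0.39 and the 8 inside it 0.36. By catalytic fold, the 10 class II enzymes had a median of 0.55, with all 10 above 0 under each of 4 scalings and 5 at the 1.5-fold mark (3 with own totals). The 9 class I enzymes had a median of 0.29, with 8 above 0 (VARS turns as above) and IARS at that mark. Of all tested genes, 60.2% lay above 0 and 12.5% were at the 1.5-fold mark as deposited. EPRS, which joins an enzyme of each class in one protein, was left out of both classes. Neither of these differences between groups was tested, since members are not replicates.

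Within the multisynthetase complex the scaffold AIMP2 had the largest ratio of any of the 38 genes, while AIMP1 lay near the middle. AIMP2 (ENSG00000106305, chromosome 7, 6009245 to 6023834, plus strand) had 22.9 FPKM from 816 reads against 9.35 from 333, a ratio of 2.45 (2.15 to 2.79) and a log2 ratio of 1.21, higher than in 99.1% of all tested genes. It shares 28.9% of its exon length with EIF2AK1 on the opposite strand, which had 21.4 against 25.7 FPKM, and the strand setting of the counting is not given in the sources used here. AIMP1 (ENSG00000164022) had 20.8 against 16.5 FPKM, a ratio of 1.26 (1.16 to 1.37), and shares 11.6% of its exon length with TBCK on the opposite strand (2.55 against 2.58 FPKM). AIMP2 thus stood at 0.567 of the level of AIMP1 in the control library and at 1.10 of it in the other, a quotient of 1.94 (1.67 to 2.26). AIMP2 also stood at 0.284 and 0.448 of KARS, the enzyme it binds. The third scaffold, EEF1E1, which is counted among the elongation factors here, had 4.65 against 2.67 FPKM, a ratio of 1.74 (1.37 to 2.23).

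Levels of the complex subunits did not keep one proportion between the libraries. Of the 8 enzymes with AIMP1 and AIMP2, 9 of 10 were higher, with QARS the exception, where 60.2% of all tested genes were higher. The highest level was 4.38 times the lowest in the control library and 3.13 times in the other. KARS stood at 0.900 of QARS in the control library and at 1.66 of it in the other (quotient 1.84, 1.71 to 1.97). AIMP1 and RARS, which adjoin each other in the complex, kept their ratio, at 0.580 and 0.567 (quotient 0.978, 0.884 to 1.08).

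The mitochondrial enzymes were less abundant and spread further from one another in level. IARS2, at 50.9 against 44.8 FPKM, and CARS2, at 39.5 against 31.2, were on a par with the abundant cytosolic enzymes, while the others that passed the filter lay between 2.03 and 16.02 FPKM. Of the 16 genes, 15 passed the filter and 14 of these had a log2 ratio above 0 (12 with own totals, without NARS2 and YARS2). Of all tested genes 60.2% lay above 0, and 55.0% did with own totals. The interval lay above 1 for 11 of 15, where 49.0% of all tested genes had an interval above 1. It lay above the depth ratio for 9, and the share of all tested genes past that ratio was not computed. The 4 genes whose interval held 1 were NARS2, VARS2, WARS2 and YARS2. The median log2 ratio was 0.25, against 0.37 for the cytosolic enzymes, a difference of 0.11 that had no test. Over the alternatives it lay between 0.04, with a minimum mean FPKM of 5, and 0.16, with 5 added to FPKM. The 16 mitochondrial genes took 0.0884% of reads in the control library and 0.105% in the other, 1.19 times the share (1.17 to 1.22).

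MARS2, AARS2 and EARS2 were the mitochondrial enzymes at the 1.5-fold mark. MARS2, which charges the mitochondrial methionine tRNA (ENSG00000247626, chromosome 2, 197705369 to 197708387, plus strand), had 8.78 FPKM from 514 reads against 3.61 from 211, a ratio of 2.44 (2.07 to 2.87) and a log2 ratio of 1.09. AARS2, the mitochondrial alanyl enzyme (ENSG00000124608, chromosome 6, 44299654 to 44313326, minus strand), had 11.9 against 6.42 FPKM, a ratio of 1.85 (1.67 to 2.06). EARS2, for glutamate, had 8.38 against 5.21 FPKM, a ratio of 1.61 (1.45 to 1.79), and with own totals the ratio was 1.52, while the log2 ratio, with 1 added to FPKM, was under the mark.

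The remaining mitochondrial enzymes differed less. LARS2, for leucine, had 11.2 against 7.95 FPKM (1.41, 1.31 to 1.53). PARS2, TARS2, CARS2, FARS2 and HARS2, for proline, threonine, cysteine, phenylalanine and histidine, had ratios between 1.21 (HARS2) and 1.32 (PARS2). IARS2 and RARS2, for isoleucine and arginine, stood at 1.14 and 1.12. WARS2 had 4.05 against 3.50 FPKM, and the interval of its ratio, 1.16 (0.977 to 1.37), holds 1, so a difference was not detectable at this depth. The same held for NARS2 (3.44 against 3.32 FPKM), YARS2 (13.0 against 12.9) and VARS2 (4.36 against 4.55, ratio 0.958, 0.864 to 1.06). The log2 ratios of NARS2 and YARS2, 0.04 and 0.01, were below 0 with own totals, and no direction is read for either. VARS2 shares 22.0% of its exon length with GTF2H4 on the same strand. SARS2, for serine, had only 43 and 38 reads (0.687 against 0.607 FPKM), and 57.0% of its exon length is shared with other genes, AC011455.2 and MRPS12.

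Amino acid by amino acid, the balance of cytosolic to mitochondrial enzyme differed between the libraries in both directions, and this balance does not depend on how the libraries were scaled. Among 16 pairings with both genes past the filter, the ratio of cytosolic to mitochondrial FPKM was higher for 9 and lower for 7 under the TRIP13 shRNA label. The pairings are not independent, since EPRS enters with both EARS2 and PARS2, and FARS2 with both FARSA and FARSB. The interval of the quotient between libraries lay above 1 for 8, below 1 for 5 and held 1 for 3, and the median quotient was 1.14. The cytosolic gene had the higher level in both libraries in 13 of the 16.

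The largest quotients, toward the cytosolic enzyme, were those of phenylalanine, histidine and isoleucine. FARSB stood at 7.35 times the level of FARS2 in the control library and at 12.6 times in the other, a quotient of 1.71 (1.39 to 2.10). HARS stood at 0.929 and, in the same order of libraries, 1.43 times HARS2, a quotient of 1.54 (1.36 to 1.75). IARS stood at 0.915 and 1.28 times IARS2 (1.40, 1.33 to 1.48). For histidine and isoleucine the mitochondrial enzyme thus had the higher FPKM in the control library and the cytosolic enzyme in the other. This order rests on exon length, 7853 bases for HARS against 3736 for HARS2 and 7401 for IARS against 4165 for IARS2. In reads the cytosolic enzyme led in the control library too, with 1212 against 621 for histidine and 5878 against 3614 for isoleucine. No interval was computed for a ratio within 1 library. The smallest quotients were those of methionine and alanine. MARS stood at 5.06 and 2.56 times MARS2, a quotient of 0.506 (0.427 to 0.599), and AARS at 7.81 and 5.75 times AARS2 (0.736, 0.658 to 0.823). Leucine (0.814), glutamate (0.808) and cysteine (0.908) also had quotients with an interval below 1. CARS2 exceeded CARS in both libraries, with CARS at 0.214 and 0.195 of its level.

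**Figure D3:**
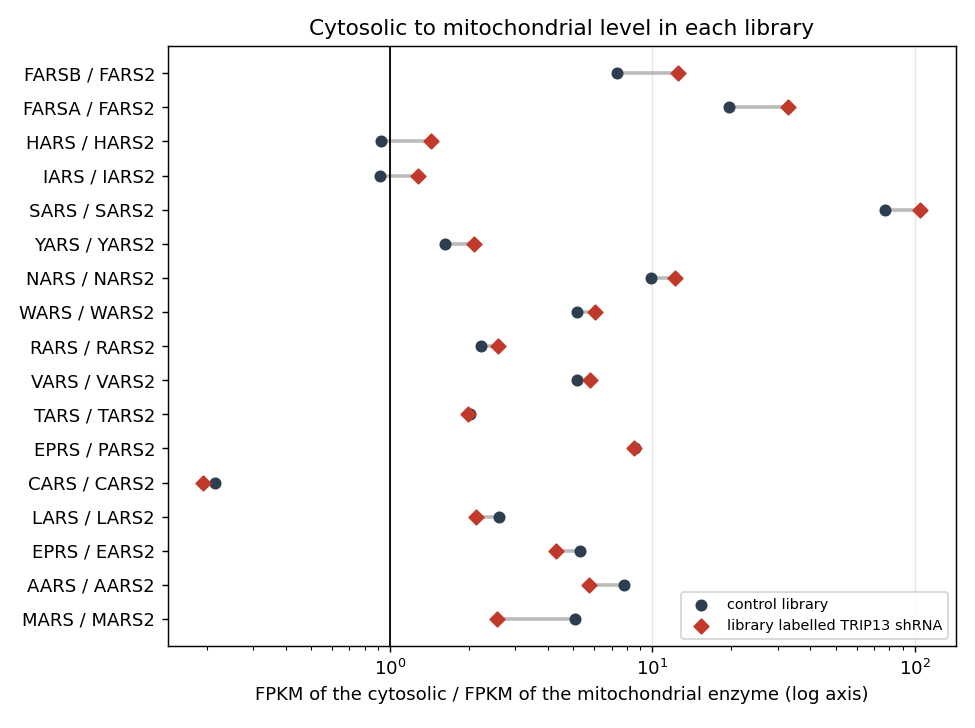
FPKM of the cytosolic over FPKM of the mitochondrial enzyme (log axis) for 17 pairings in each library (circles for control, diamonds for the TRIP13 shRNA label), ordered by the quotient between libraries. FARSB/FARS2 is at the top with a quotient of 1.71 and MARS/MARS2 at the bottom with 0.506. SARS/SARS2 is drawn although SARS2 did not pass the filter.

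HARS and HARS2 lie head to head on chromosome 5, HARS on the minus strand (140673904 to 140691862) and HARS2 on the plus strand (140691426 to 140699318). Their RefSeq starts, at 140691370 and 140691455, leave 84 bases between them. In GENCODE 29 their exons overlap by 437 bases, 5.56% of the exon length of HARS and 11.7% of that of HARS2. HARS had a ratio of 1.87 (1.74 to 2.01) and HARS2 1.21 (1.09 to 1.35), intervals that do not overlap, from 2265 against 1212 and 753 against 621 reads.

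Promoter sequence was available from RefSeq (GRCh38.p14) for 32 of the 38 genes, as 44 windows from 250 bases before to 50 bases after a start. AARS2, DARS, LARS, VARS, VARS2 and YARS had no entry. Motifs were searched on both strands, and a match describes letters in this window, not a bound site. The E-box CACGTG, the letters MYC proteins bind, was in 6 of 44 windows (13.6%, 5 genes) and in 8.34% of 22199 windows of protein-coding genes. CACGTG was in 1 of 21 windows of cytosolic enzymes (4.76%), 4 of 18 of mitochondrial enzymes (22.2%) and 1 of 5 of scaffolds. The palindromic motif of NRF1, a regulator of nuclear genes for mitochondria, was in 9 of 44 (20.5%) and in 7.39% of all. By compartment it was in 5 of 21 windows of cytosolic enzymes (23.8%), 3 of 18 of mitochondrial enzymes (16.7%) and 1 of 5 of scaffolds. Windows of neighbouring starts overlap and can count 1 site more than once, and the 9 windows belong to 7 genes, MARS2, AIMP2, FARSB, SARS, PARS2, TARS and IARS2, with ratios from 1.14 (IARS2) to 2.45 (AIMP2). The window of MARS2 and 1 of the 2 windows of AIMP2, the members with the largest ratios, held both motifs, and the other window of AIMP2 held neither, while the windows of FARSA, HARS, HARS2 and QARS held none of the motifs searched. The 150 bases before the start are shown for MARS2 and for AIMP2, with both kinds of motif in capitals. Of the 2 RefSeq starts of AIMP2, the more downstream one was used because its window held more motif matches. MARS2 lies at chr2:197705219-197705368 and AIMP2 at chr7:6009415-6009564, both on the plus strand. The AIMP2 stretch lies inside the annotated gene, which begins at 6009245, so it is not upstream of every annotated start. It was compared with untranslated regions only, not with coding sequence. The stretch, with its CACGTG, may therefore be protein-coding and is not shown to be promoter sequence.
MARS2: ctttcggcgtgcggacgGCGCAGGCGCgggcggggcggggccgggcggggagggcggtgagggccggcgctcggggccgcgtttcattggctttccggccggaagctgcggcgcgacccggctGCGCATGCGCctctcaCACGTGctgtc
AIMP2: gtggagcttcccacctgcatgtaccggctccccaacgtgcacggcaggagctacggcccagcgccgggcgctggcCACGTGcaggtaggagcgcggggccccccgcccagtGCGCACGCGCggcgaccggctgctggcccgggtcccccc
For FARSB, 30 bases around the match (chr2:222656081-222656110, minus strand) are shown. The match starts 8 bases before the RefSeq start. The stretch lies inside the annotated gene, which on this strand begins at 222656337, so it is not upstream of every annotated start. All 30 printed bases lie in annotated untranslated regions.
FARSB: tcagctcgctGCGCAGGCGCagtgagttcg

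A motif of the amino acid response was found in a larger share of cytosolic than of mitochondrial enzyme promoters, and its carriers were not the genes with the largest ratios. TGATGNAAN, the element that ATF4 binds with C/EBP partners, was in 7 of 21 windows of cytosolic enzymes (33.3%), in 1 of 18 windows of mitochondrial enzymes (YARS2) and in 2.69% of all protein-coding windows. The 7 cytosolic carriers, all read 5′ to 3′ on the gene's strand with 10 bases on each side and the match in capitals, are shown so that the element and its surroundings can be compared between them.
AARS: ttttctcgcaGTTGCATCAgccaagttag
CARS: cggggcggcgGTTGCATCAgattctagga
GARS: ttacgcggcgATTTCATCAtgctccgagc
IARS: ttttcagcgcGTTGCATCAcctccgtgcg
MARS: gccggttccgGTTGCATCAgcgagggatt
NARS: ctacgctctcTGATGCAACgccggaatcg
TARS: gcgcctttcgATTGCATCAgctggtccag
They lie at chr16:70289676-70289704 (AARS, minus), chr11:3057408-3057436 (CARS, minus), chr7:30594834-30594862 (GARS, plus), chr9:92293693-92293721 (IARS, minus), chr12:57488053-57488081 (MARS, plus), chr18:57621804-57621832 (NARS, minus) and chr5:33440956-33440984 (TARS, plus). In GENCODE 29 all 29 printed bases of CARS, GARS, IARS, MARS, NARS and TARS lie in untranslated regions, and none of those of AARS do. Among these 7 genes, IARS alone reached the 1.5-fold mark (log2 ratio 0.66), and the others lay between 0.18 (CARS) and 0.44 (AARS).

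The 12 cytosolic synthetases listed as ATF4 targets lay close together. All 12 had a log2 ratio above 0 (also with own totals, TPM and the median ratio set to 1), from 0.18 (CARS) to 0.66 (IARS), with a median of 0.36, and IARS and SARS reached the 1.5-fold mark (neither with own totals). The other 8 cytosolic enzymes ran from -0.24 (QARS) to 1.04 (FARSB) with a median of 0.56, and 4 of them (FARSA, FARSB, HARS and KARS) reached it, KARS not with own totals. Genes of the amino acid response outside the synthetases went both ways. Of 20 listed, 19 passed the filter, 12 lay above 0 and 7 below, with a median of 0.20. That split is close to the one of all tested genes, 60.2% above 0 and 39.6% below. At the 1.5-fold mark were 6 upward and 3 downward, beside 12.5% and 10.2% of all tested genes. ATF4 itself had 81.1 against 99.95 FPKM (ratio 0.811, 0.778 to 0.846). The gene for the secreted glycoprotein STC2 stood at 106 against 10.2 FPKM, and PSAT1, an enzyme of serine synthesis, at 52.8 against 19.2. DDIT4, an inhibitor of mTORC1, stood at 15.2 against 62.4 FPKM, and ATF3, a stress-induced transcription factor, at 3.33 against 9.23.

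Other genes that make, process and use tRNAs were mostly higher as well. Of 22 RNA polymerase III subunits and factors, which transcribe tRNA genes, all passed the filter and 20 lay above 0 (17 with the median ratio set to 1), with a median log2 ratio of 0.29. Of all tested genes 60.2% lay above 0, and 50% did with the median ratio set to 1. At the 1.5-fold mark were 3 of the 22, near the 12.5% of all tested genes. POLR3K, a polymerase subunit, was the 1 member at the 2-fold mark, where 2.17% of all tested genes were. It had 9.18 against 3.85 FPKM (ratio 2.38, 1.95 to 2.92), and POLR3GL was the lowest at 5.51 against 6.25. Of 21 genes for tRNA end processing, splicing and export, 19 passed and all 19 lay above 0 (15 with the median ratio set to 1, not TRNT1, RTCB, TSEN34 and XPOT). Their median was 0.52, and 6 were at the 1.5-fold mark, where 12.5% of all tested genes were. ELAC2, which trims the 3′ ends of tRNAs, had 18.7 against 9.19 FPKM (2.04, 1.90 to 2.19), and TRNT1, which adds their terminal CCA, 4.55 against 4.36.

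Elongation factors, which carry charged tRNAs to the ribosome or act with it, had a median of 0.43 over the 6 of 8 that passed, all above 0 under each of 4 scalings. Of all tested genes 60.2% lay above 0 as deposited, and 49.5% did under TPM, the lowest share of the 4. EIF5A was highest at 295 against 175 FPKM and EEF1A1 lowest at 812 against 725. EEF1G is listed at 0 in both libraries. Among 13 mitochondrial partners, 12 passed and 10 lay above 0 (10 also with the median ratio set to 1, where 50% of all genes did), with a median of 0.36. GFM1, the mitochondrial elongation factor G1, had 12.3 against 5.73 FPKM (2.15, 1.99 to 2.32), and QRSL1, a subunit of the amidotransferase that makes mitochondrial glutaminyl-tRNA, 7.43 against 4.75. TRMU, which thiolates mitochondrial tRNAs, was lowest at 4.59 against 6.14 (0.748, 0.682 to 0.819).

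WARS was read beside other interferon gamma response genes, which were split about as all tested genes were. Of 14, 8 passed the filter, 5 above 0 and 3 below, beside 60.2% and 39.6% of all tested genes. Their median was 0.12 (-0.13 under TPM), the same as over all tested genes. None as deposited was at the 1.5-fold mark in either direction, where 12.5% of all tested genes were higher and 10.2% lower. PSMB8, an immunoproteasome subunit, had 20.4 against 14.7 FPKM and GBP2, a guanylate-binding protein, 1.09 against 1.998, with WARS at a log2 ratio of 0.42. CXCL9 and CXCL10 had 0 reads in both libraries.

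**Figure D4:**
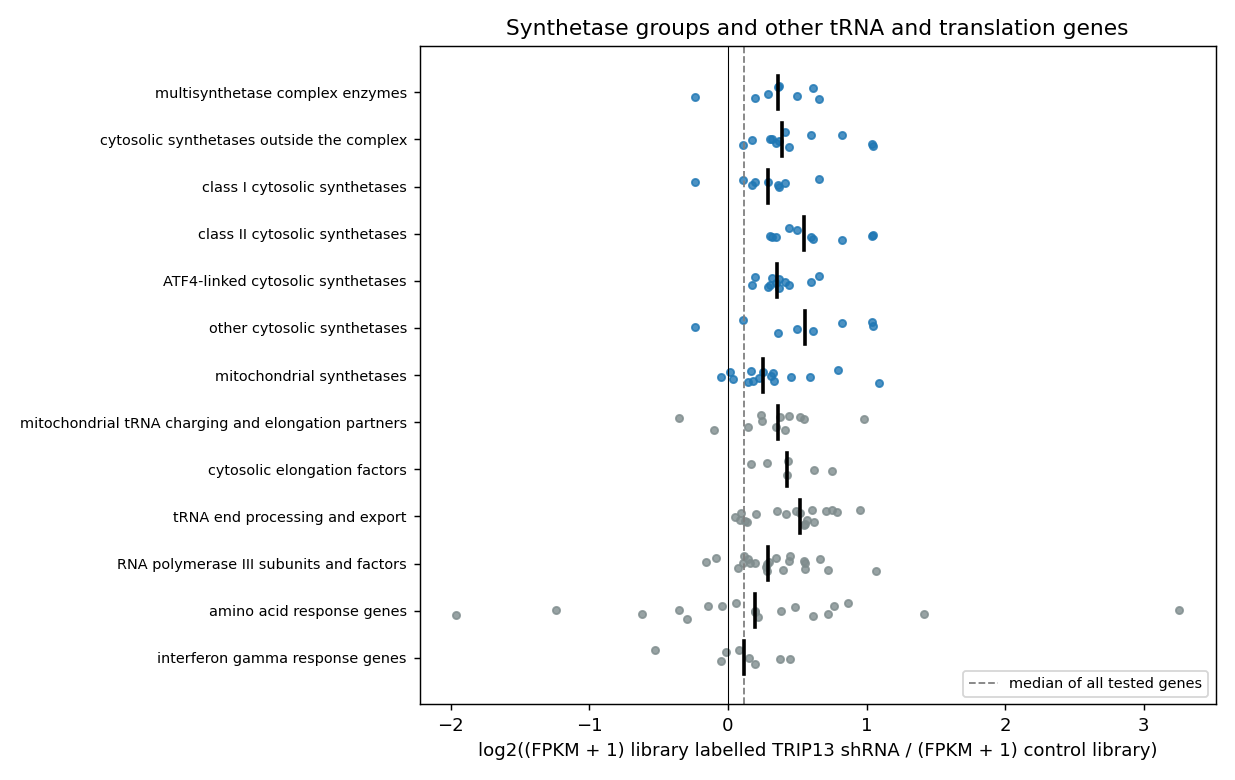
The log2 ratio, with 1 added to both FPKM values, of each gene past the filter, by group, with synthetases in blue, other genes in grey, the group's median as a black bar and the median of all tested genes (0.12) as a dashed line. Points are jittered vertically. The medians run from 0.12 for interferon gamma response genes to 0.56 for cytosolic enzymes outside the ATF4 list, and the amino acid response genes spread the widest, from -1.96 to 3.26.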

How the data were processed

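RNA was sequenced from 2 libraries of U87MG glioma spheres, 1 per group. The authors deposited FPKM values per gene. Per the submitters' processing notes the build was hg38 and the tools included edgeR, featureCounts 1.5.0-p3 and HISAT2 2.0.5, without roles or settings. The annotation is not given in the sources used here, but positions and strands of all 58735 genes equalled GENCODE 29, which was used for exon overlaps. Values times gene length were whole multiples of 1 step, 51.5981, within 0.01 of a read for 100% of values in both libraries, and reads were recovered from it. The log2 ratio used a pseudocount of 1. All 38 members and TRIP13 are named. Of each other list, markers included, the highest and lowest gene and those at the 2-fold mark are named, up to 4. ATF4, DDIT3, EEF1E1, EEF1G, QRSL1, RTCB, TSEN34, XPOT, CXCL9 and CXCL10 were added after their values were seen. Members and lists were chosen with earlier results of these data known. Quotients of ratios have normal-approximation intervals on the log scale. Functions were tested on simulated data. Alternatives are given in the closing section. The work used scipy 1.17.1, pandas 2.3.3, matplotlib 3.10.9 and numpy 2.4.6 under Python 3.11.15.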

Additional observations from a re-analysis of the deposited data

How the results depend on the processing

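No paired analysis was possible because there is only 1 library on either side. A list's median counts as moved when it left the binomial order-statistic interval of the median over its members. The log2 ratios of VARS, NARS2 and YARS2 turned in 12 of 328 alternative member values, and 245 of the 328 stayed inside the counting interval. Members at the 2-fold mark numbered 4 as deposited, 0 with 5 added to FPKM, 2 under TPM, own totals and totals without mitochondrial and the 50 most abundant genes, and 1 with the median ratio set to 1. Members at the 1.5-fold mark numbered 10 as deposited and 6 with 5 added, TPM, own totals and the median ratio of 1.

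Of all tested genes, 232 were 2-fold higher and 447 lower as deposited. With 0.1 added these were 408 and 677, with 5 added 64 and 180, and 138 were higher with the median ratio set to 1. The lower count was 280 with a minimum mean FPKM of 5, 956 under TPM, 773 with recovered reads plus 5 and 737 over every biotype. At the 1.5-fold mark 1334 were higher and 1084 lower as deposited. With 5 added these were 630 and 496, 809 were higher with the median ratio of 1, and the lower count was 599 with a minimum of 5, 2099 under TPM and 1667 over every biotype.

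The cytosolic median of 0.37 was 0.26 under TPM, 0.29 with own totals, 0.23 with the median ratio of 1, 0.30 without mitochondrial and abundant genes and 0.30 with reads plus 5. In that order the median over all members was 0.23, 0.25, 0.20, 0.26 and 0.28. The mitochondrial median of 0.25 was 0.12 with the median ratio of 1. Enzymes outside the complex had 0.29 under TPM and 0.26 with the median ratio of 1, and the ATF4 list 0.25 and 0.22 and, with own totals, 0.28. The tRNA processing median was 0.64 with 0.1 added. The log2 ratio of TRIP13, 0.90 as deposited, was 0.74 with 5 added and 0.77 with the median ratio of 1. Depth limits the weakest members, since SARS2 had only 43 and 38 reads.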
